A study of Rattus norvegicus with 2 samples.

Results

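Rab proteins are small GTPases that mark and move the membrane compartments of the cell, and the data here are the transcript levels of the Rab family in rat oligodendrocyte precursor cells (OPCs) that did or did not receive a Slit1 construct. The members were the rows of the deposited gene table whose symbol is Rab followed by a number and at most 1 letter from a to d. This rule took 57 of 17455 genes, all protein-coding in RefSeq, and used no measured value. Regulators such as Rab3gap1 and Rab-like genes such as Rabl6 fall outside it. OPCs are glial progenitors of the central nervous system that can differentiate into oligodendrocytes, the cells that wrap axons in myelin. The cells were wild type and were transfected, by a kit-based method, either with Slit1 (a secreted ligand of Robo receptors; here the Slit1 library) or with a vector (the library labelled control; here the vector library). There was 1 library in each group, so no difference given here has a replicate check and no p-value was computed. The labels used here give neither the time from transfection to harvest nor the number of animals behind the cells.

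A Rab switches between a GTP-bound form, which recruits effectors to a membrane, and a GDP-bound form. Exchange factors load GTP, GTPase-activating proteins return the Rab to its GDP form, and a GDP dissociation inhibitor carries the prenylated GDP form through the cytosol. Each compartment has its own set: Rab5 on early endosomes, Rab4 and Rab11 in recycling, Rab1, Rab2 and Rab6 at the endoplasmic reticulum (ER) and Golgi, Rab3 and Rab27 in regulated secretion, Rab7 and Rab9 on late endosomes. Differentiating oligodendrocytes send large amounts of lipid and protein, such as the proteolipid protein PLP, through these routes to the myelin membrane.

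The libraries held 18998770 estimated read counts with Slit1 and 18817462 with vector. Levels are in TPM, an abundance per transcript length scaled to the same total in each library. Slit1 itself stood at 229.7 TPM in the Slit1 library and 1.70 TPM in the vector library, as the labels say. All 6 OPC markers looked at were above 1 TPM in both libraries (summed 1822 TPM with Slit1 and 1937 TPM with vector). Of these the transcription factor gene Sox10 was called higher, at 218 TPM with Slit1 and 71.4 TPM with vector. The other 5 were not called, and 2 of them measured lower with Slit1. These were Ptprz1 (688 TPM with Slit1 and 914 TPM with vector) and Olig1 (686 and 730 TPM). The 7 oligodendrocyte markers were all at least 1.5-fold higher with Slit1 (summed 3708 TPM, against 836 TPM with vector). Mbp, the gene of myelin basic protein, was at 1704 TPM with Slit1 and 220.5 TPM with vector. Astrocyte markers were high in both libraries of cells labelled OPC. The 6 summed to 8454 TPM with Slit1 and 7467 TPM with vector, most of it Gfap (6130 and 4694 TPM). Slc1a2 and Gja1, 2 of the 6, were called lower with Slit1. Gfap (ratio 1.31) and Aqp4 (462 TPM with Slit1 and 389 TPM with vector, ratio 1.19) were higher, short of 1.5-fold. Of the 6, 3 measured higher with Slit1 and 3 lower. The 6 neuronal markers summed to 60.6 TPM with Slit1 and 60.2 TPM with vector. Of these, 1 was called lower, Nefl, on 12 counts with Slit1 and 30.0 counts with vector. The 4 fibroblast and pericyte markers in the table summed to 12.2 TPM with Slit1 and 11.1 TPM with vector, and the 4 microglial and 5 endothelial markers in the table were all under 1 TPM in both. The part of these cell types in the Rab values below was not tested, and in bulk RNA fewer cells of a type and less RNA per cell cannot be told apart.

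A difference is that of log2(TPM + 1), Slit1 minus vector. A gene was called higher or lower when that difference reached 1.5-fold and its mean over both libraries was at least 1 TPM. Ratios are of the TPM values, Slit1 over vector, each with an exact 95% interval for counting error alone, which says nothing of the spread between cultures. Of the 57 members, 52 reached 1 TPM and 5 did not. Those 5 were Rab37 (0 counts with Slit1 and 1 with vector), Rab25 (0.95 and 1 counts), Rab44 (3.78 and 2.74 counts), Rab19 (4 and 2 counts) and Rab3c (3 and 4 counts), and no fold is given for them.

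Among the 52, 4 were called higher in the Slit1 library, Rab33a, Rab3a, Rab40c and Rab9b, and 2 were called lower, Rab27b and Rab39a. That is 7.69% higher, against 3.72% of all 13175 genes at or above 1 TPM, and 3.85% lower, against 4.83% of all genes. With 6 called members, nothing particular to the family is read from these shares. At a 2-fold limit, 1 member was higher (Rab33a), against 1.24% of all genes, and 1 lower (Rab27b), against 0.645%. Counting intervals lay wholly beyond 1.5-fold for 3 higher members (1.97% of all genes) and 1 lower (1.91%). The median difference of the 52 was -0.12, and that of all genes was -0.05. Below 0 lay 35 of the 52 members (67.3%), against 56.0% of all genes. Summed over the 57 members, Rab transcripts made up 5808 TPM with Slit1 and 6197 TPM with vector, a ratio of 0.937. The counting interval of the ratio lay wholly above 1 for 14 of the 52 members (26.9%, against 22.3% of all genes). It lay wholly below 1 for 20 of them (38.5%, against 33.5% of all genes). The same 6 members were called under every other scaling, while the balance over all genes moved: 3.92% were higher and 3.57% lower in CPM (counts scaled to the library total), 3.31% and 2.79% in FPKM, 4.43% and 3.72% with the median gene set to 0, 4.04% and 3.5% with edgeR TMM factors, and 4.12% and 3.48% with DESeq2 size factors.

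**Figure D1:**
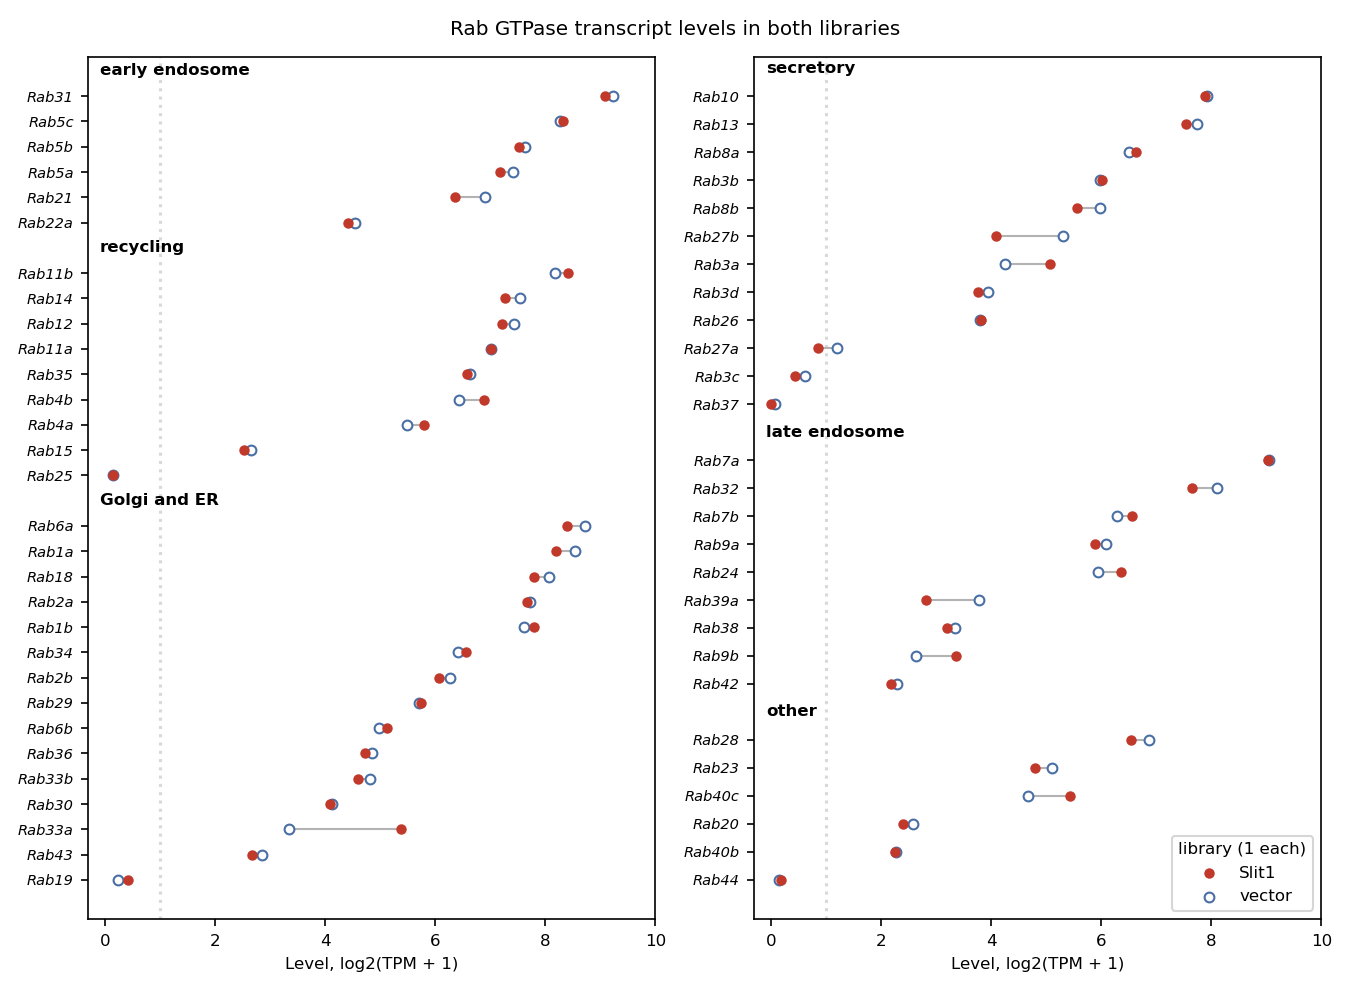
Level of each of the 57 Rab members on the horizontal axis, as log2(TPM + 1), in the Slit1 library (filled) and the vector library (open), 1 library each, grouped by compartment; the dotted line marks 1 TPM. Most pairs of points nearly touch, and Rab33a (40.4 TPM with Slit1 and 9.20 TPM with vector) is farthest apart.

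The most abundant Rab transcripts kept the top places in both libraries. Rab31, a Rab5-related protein of the route between the trans-Golgi and endosomes that was studied early in oligodendrocytes, ranked 1 in both, at 539 TPM with Slit1 and 601 TPM with vector. Rab7a, the late endosome and lysosome Rab, ranked 2 in both, at 519 and 529 TPM in the Slit1 and vector libraries. The next places were held by Rab11b, Rab6a, Rab5c and Rab1a in the Slit1 library and by Rab6a, Rab1a, Rab5c and Rab11b in the vector library. At least 100 TPM was reached by 18 members with Slit1 and by 19 with vector.

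The promoter windows of 3 of the called members are shown because their counting intervals lay wholly beyond 1.5-fold: Rab3a and Rab40c, which were higher with Slit1, and Rab27b, which was lower. Rab33a meets the same rule, and its promoter window is not analysed here. The windows run from 250 bases before to 50 bases after the annotated start in RefSeq (build GRCr8), and RefSeq windows were matched for 47 of the 57 members. Capitals mark matches, on either strand, to the E-box CANNTG (bound by basic helix-loop-helix factors), the GC box GGGCGG (bound by Sp1), the cAMP response element half-site TGACG or the SOX core AACAAT; no matches overlapped in these windows.
Rab3a (chr16:18722224-18722523, minus strand): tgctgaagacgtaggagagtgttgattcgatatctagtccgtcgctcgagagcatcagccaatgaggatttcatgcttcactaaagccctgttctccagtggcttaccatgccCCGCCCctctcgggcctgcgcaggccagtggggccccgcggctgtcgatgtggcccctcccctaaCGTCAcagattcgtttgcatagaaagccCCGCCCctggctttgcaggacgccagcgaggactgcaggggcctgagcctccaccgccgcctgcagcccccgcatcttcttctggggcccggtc
Rab40c (chr10:15440610-15440909, minus strand): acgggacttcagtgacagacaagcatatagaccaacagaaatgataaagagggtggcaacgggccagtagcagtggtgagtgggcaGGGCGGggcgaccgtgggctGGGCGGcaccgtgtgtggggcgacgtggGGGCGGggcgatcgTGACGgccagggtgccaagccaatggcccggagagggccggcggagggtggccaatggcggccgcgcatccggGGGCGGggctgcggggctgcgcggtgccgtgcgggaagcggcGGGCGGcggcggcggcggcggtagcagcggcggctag
Rab27b (chr18:65938534-65938833, minus strand): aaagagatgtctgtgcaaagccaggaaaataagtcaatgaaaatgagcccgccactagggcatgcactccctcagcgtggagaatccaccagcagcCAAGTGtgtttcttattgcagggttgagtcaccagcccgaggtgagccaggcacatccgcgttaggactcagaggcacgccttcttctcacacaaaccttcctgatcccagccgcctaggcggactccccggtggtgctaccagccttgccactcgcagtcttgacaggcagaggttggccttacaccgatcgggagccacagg
The Rab3a window held 2 GC boxes and 1 TGACG half-site, the Rab40c window 5 GC boxes and 1 half-site, and the Rab27b window 1 E-box. Over the 33469 RefSeq windows of this length, the E-box was found in 72.1%, the GC box in 33.1%, the half-site in 21.2% and the SOX core in 11.7%. Of the 47 Rab windows, 28 held the E-box, 37 the GC box, 16 the half-site and 1 the SOX core. Bases G and C made up 63.0% of the median Rab window and 51.7% of the median over the 33469 windows. These outnumber the 17455 genes deposited here and are not a like set for the Rab windows. Nothing particular to Rab promoters is read from the contrast. The marked sites are matches of letters and say nothing of binding.

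None of the 6 early endosome members was called, and 5 of them lay below 0 (median difference -0.14). Rab5a, Rab5b and Rab5c share the role of early endosome fusion. Rab5c measured 320.1 TPM with Slit1 and 307 TPM with vector, Rab5b 182 and 199 TPM, and Rab5a 143.5 and 170.2 TPM. Rab5c was the 1 member above 0 (ratio 1.04, interval 1.001 to 1.08), and Rab5a was lower, at a ratio of 0.843 (interval 0.801 to 0.888). Rab21, which directs endocytosis of integrins, was the member nearest to the limit without reaching it. It measured 80.9 TPM (1019 counts) with Slit1 and 119 TPM (1423 counts) with vector, a ratio of 0.677 (interval 0.624 to 0.734). Rab22a, also of early endosomes, stood at 20.3 TPM with Slit1 and 22.3 TPM with vector, and the ratio of the abundant Rab31 was 0.897 (interval 0.878 to 0.917).

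None of the 8 recycling members at or above 1 TPM was called, and they lay on both sides of 0 (median difference -0.03, which lay between 0.01 and 0.03 under the other scalings). Both Rab4 genes, whose products serve fast recycling from early endosomes, were higher. Rab4b measured 116.9 TPM with Slit1 and 85.3 TPM with vector (ratio 1.37, interval 1.251 to 1.502), and Rab4a measured 54.7 and 44.0 TPM (ratio 1.24, interval 1.11 to 1.397). Rab11b, of the slow route through the recycling endosome, was higher at 340.2 TPM with Slit1, against 290.3 TPM with vector (ratio 1.17, interval 1.12 to 1.22), while its paralog Rab11a stood at 128 TPM with Slit1 and 129 TPM with vector. Rab14, which acts between endosomes and the Golgi, was lower, at 153 TPM with Slit1 and 186 TPM with vector (ratio 0.826, interval 0.791 to 0.862), a difference of -0.27 that was -0.11 in CPM. Rab12, which takes part in the degradation of transferrin receptor, had 147 and 172 TPM in the Slit1 and vector libraries, a difference of -0.23 that was -0.18 in CPM. Rab35, of endosomal recycling and, in an oligodendroglial line, of exosome release, was at 94.5 TPM with Slit1 and 97.8 TPM with vector, and Rab15 was scarce at 4.77 and 5.32 TPM.

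Among the 14 Golgi and ER members at or above 1 TPM, Rab33a was called higher and none was called lower. Rab33a, a Golgi-related Rab that in neurons sits on vesicles carried out along the growing axon, had the largest difference of all 52 members. It measured 40.4 TPM (355 counts) with Slit1 and 9.20 TPM (78.4 counts) with vector, a ratio of 4.39 (interval 3.43 to 5.68). The absolute difference was larger than that of 99.8% of all genes at or above 1 TPM. Its paralog Rab33b, a Golgi Rab that also binds the autophagy protein Atg16l1, went the other way, at 23.2 TPM with Slit1 and 27.1 TPM with vector (ratio 0.854, interval 0.770 to 0.947). Rab33a thus made up 63.6% of the summed TPM of the pair in the Slit1 library and 25.3% in the vector library.

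The abundant housekeeping members of the Golgi and ER group differed by less than 1.5-fold. The absolute differences of Rab1a and Rab6a were larger than those of 72.9% and 72.3% of all genes at or above 1 TPM. For Rab1b and Rab6b these shares were 44.0% and 36.8%. Rab1a, of ER-to-Golgi transport, was at 294 TPM with Slit1 and 370.5 TPM with vector (ratio 0.793, interval 0.762 to 0.824), and its paralog Rab1b was at 220.1 and 195 TPM (ratio 1.13, interval 1.07 to 1.18). Rab6a, of transport through and back from the Golgi, was at 335 TPM with Slit1 and 422 TPM with vector (ratio 0.796, interval 0.775 to 0.817), and Rab6b was at 33.7 and 30.4 TPM (ratio 1.11, interval 1.02 to 1.196). In both pairs the a form was lower and the b form higher. RefSeq lists 13 Rab pseudogenes that are not rows of the table, copies of Rab1a, Rab1b, Rab5c, Rab7a, Rab11a, Rab12 and Rab18, so counts of these members are uncertain if reads were shared with the copies. Rab6a overlaps Plekhb1 in RefSeq, and with both genes' counts summed the CPM ratio was 0.868 (interval 0.847 to 0.889).

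Rab18, of the ER and lipid droplets, was at 220.0 TPM with Slit1 and 267 TPM with vector (ratio 0.823, interval 0.786 to 0.863). Rab2a, which acts between ER and Golgi, was at 203 and 210.2 TPM in the Slit1 and vector libraries, and Rab2b was at 65.9 and 76.1 TPM. Rab34, a Golgi Rab with a role in cilium formation, was at 93.5 TPM with Slit1 and 83.9 TPM with vector (ratio 1.12, interval 1.03 to 1.21). The other 4 members had ratios from 0.863 to 1.02 with intervals that held 1: Rab29, which acts between the trans-Golgi and lysosomes, was at 52.3 TPM with Slit1 and 51.0 TPM with vector, Rab36 at 25.3 and 27.8 TPM, Rab30 at 15.9 and 16.5 TPM, and Rab43 at 5.36 and 6.21 TPM. In CPM the interval of Rab30 lay below 1 (ratio 0.871, interval 0.785 to 0.966), and that of Rab2b held 1.

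Of the 10 secretory members at or above 1 TPM, Rab3a was called higher and Rab27b lower. Rab3a, the Rab of synaptic vesicle exocytosis that is also found in oligodendrocytes, measured 32.5 TPM (389 counts) with Slit1 and 18.1 TPM (208 counts) with vector. The ratio was 1.798 (interval 1.52 to 2.14). Rab3a overlaps Mpv17l2 in RefSeq, and with the counts of both genes summed the CPM ratio was 1.398 (interval 1.27 to 1.54), under the limit. Its paralogs differed little: Rab3b measured 64.0 TPM with Slit1 and 62.1 TPM with vector (ratio 1.03, interval 0.921 to 1.16), and Rab3d measured 12.5 and 14.4 TPM (ratio 0.869, interval 0.747 to 1.01). Rab3a was 29.7% of the summed Rab3 TPM with Slit1 and 19.0% with vector. Beside it, 4 of the 6 neuronal markers lay below 0 (median difference -0.27), while Syn1 (ratio 1.11) and Stmn2 (ratio 1.18) lay above it. The 6 summed to 60.6 TPM with Slit1 and 60.2 TPM with vector. All 7 oligodendrocyte markers were called higher (summed 3708 TPM with Slit1 and 836 TPM with vector). The part of either marker set in the Rab3a value was not tested.

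Rab27b, which docks lysosome-related and secretory vesicles at the plasma membrane and has been tied to delivery of PLP in oligodendrocytes, had the largest difference downward of all 52 members. It measured 15.9 TPM (561 counts) with Slit1 and 38.7 TPM (1271 counts) with vector, and was 2.43-fold lower (interval 2.198 to 2.69). Rab27a, the paralog known from melanosome transport, was near the floor, with 19.2 counts in the Slit1 library and 29.6 counts in the vector library, and its ratio of 0.623 had an interval that held 1 (0.331 to 1.14). The other secretory members went in both directions. Rab8b, of post-Golgi exocytosis, was at 46.5 TPM with Slit1 and 61.8 TPM with vector (ratio 0.752, interval 0.708 to 0.799), while Rab8a was at 98.3 and 89.9 TPM (ratio 1.09, interval 1.02 to 1.18). Rab13, which serves transport to cell junctions, was at 185 TPM with Slit1 and 214 TPM with vector (ratio 0.863, interval 0.7995 to 0.932). Rab10, which delivers exocytic vesicles, was at 236 TPM with Slit1 and 243 TPM with vector, and Rab26, of secretory granules, was at 13.2 and 13.0 TPM.

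Among the 9 late endosome and lysosome-related members, Rab9b was called higher and Rab39a lower, both at low levels. Rab9b, a paralog of the Rab of late endosome-to-Golgi retrieval, measured 9.32 TPM (319 counts) with Slit1 and 5.24 TPM (172 counts) with vector, a ratio of 1.78 (interval 1.47 to 2.15). Rab9a stood at 58.1 TPM with Slit1 and 66.6 TPM with vector (ratio 0.872, interval 0.783 to 0.971), so Rab9b made up 13.8% of the summed Rab9 TPM with Slit1 and 7.295% with vector. Rab39a, of late endosomes and phagosomes, rested on 33 counts with Slit1 (6.06 TPM) and 67.0 counts with vector (12.8 TPM), and was 2.11-fold lower (interval 1.37 to 3.31). The intervals of both called members reach below 1.5-fold. Rab9a overlaps Trappc2 in RefSeq, and the CPM ratio of the summed counts was 0.942, with an interval that held 1 (0.872 to 1.02).

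The abundant Rab7a had an interval that held 1 (ratio 0.982, interval 0.953 to 1.01). Rab7b, which in other cells guides late endosome and trans-Golgi traffic, was higher, at 93.4 TPM with Slit1 and 77.3 TPM with vector (ratio 1.21, interval 1.13 to 1.296). Rab24, which takes part in autophagy, was at 81.5 TPM with Slit1 and 60.4 TPM with vector (ratio 1.35, interval 1.22 to 1.49). Rab32, of lysosome-related organelles and mitochondria, was lower without reaching the limit, at 199 TPM with Slit1 and 273 TPM with vector (ratio 0.732, interval 0.701 to 0.764). Its paralog Rab38 (8.17 TPM with Slit1 and 9.11 TPM with vector) and Rab42 (3.52 and 3.92 TPM) had intervals that held 1.

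The 6 members outside these compartments included 1 called gene, Rab40c, which carries a SOCS box and acts as part of a ubiquitin ligase. It measured 42.2 TPM (936 counts) with Slit1 and 24.5 TPM (522 counts) with vector, a ratio of 1.72 (interval 1.55 to 1.92). With the counts of the overlapping gene Mettl26 added, the CPM ratio was 1.63 (interval 1.48 to 1.79). Rab40b was scarce, at 3.74 TPM with Slit1 and 3.83 TPM with vector. Rab28 and Rab23, the cilium-linked Rabs of this group, were both lower, short of 1.5-fold. Rab28 was at 92.5 TPM with Slit1 and 115.6 TPM with vector (ratio 0.8001, interval 0.738 to 0.867). Rab23, a negative regulator of Hedgehog signalling, was at 26.96 and 33.5 TPM (ratio 0.806, interval 0.743 to 0.874). Rab34 of the Golgi and ER group, which has a role in cilium formation, was higher (ratio 1.12, interval 1.03 to 1.21). Rab20, of phagosome maturation, had 4.28 and 5.02 TPM in the Slit1 and vector libraries.

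**Figure D2:**
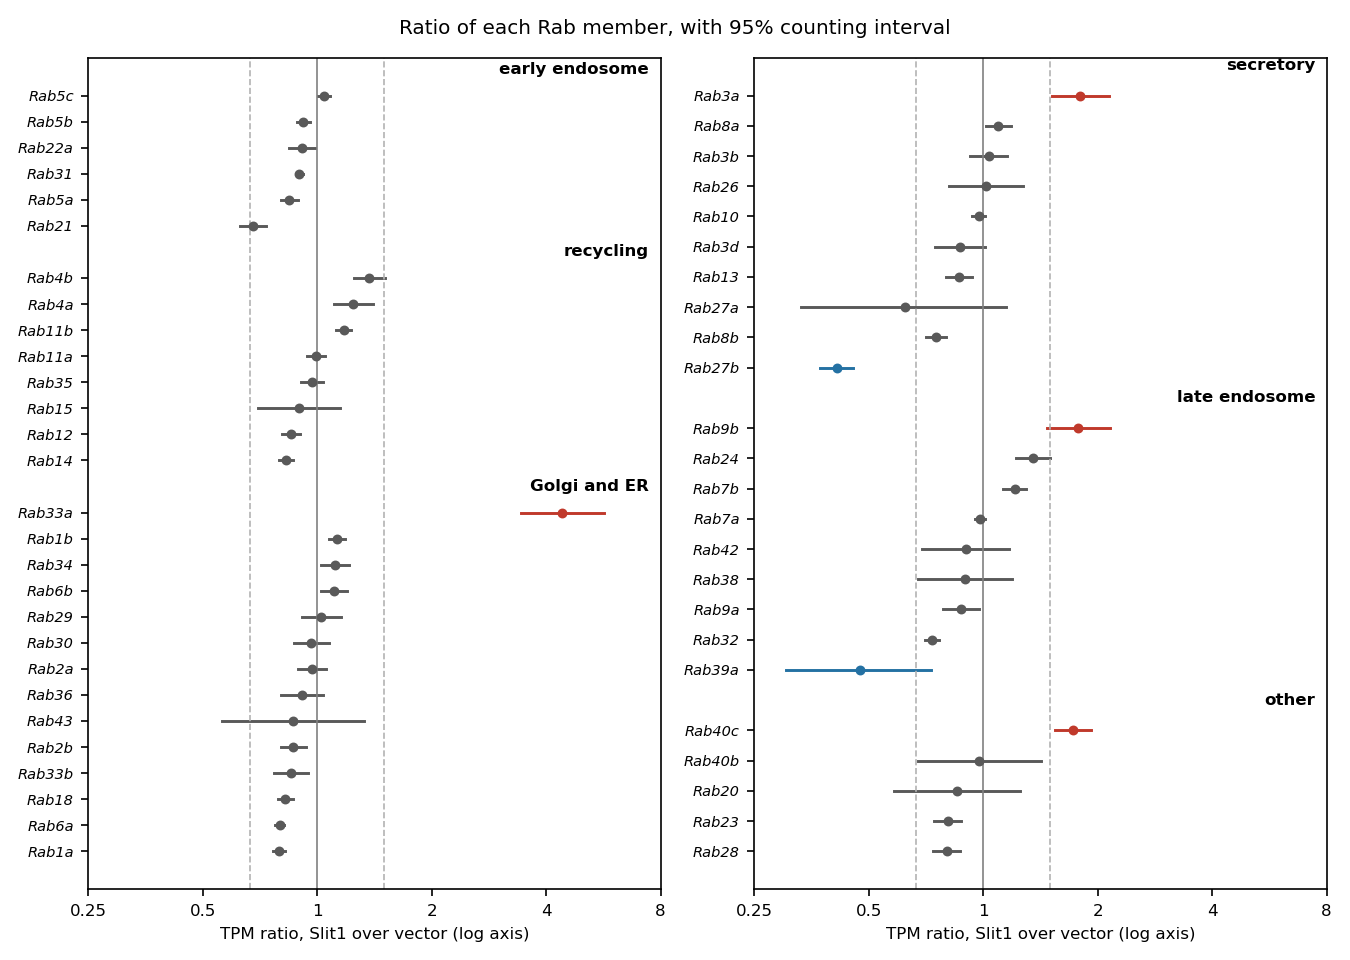
TPM ratio of each of the 52 members at or above 1 TPM, Slit1 over vector, on a log axis, with 95% counting intervals as bars, by compartment; dashed lines mark 1.5-fold, and called members are red (higher) or blue (lower). The intervals of Rab33a, Rab3a, Rab40c and Rab27b lie wholly beyond a dashed line, and those of Rab9b and Rab39a cross it.

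Of 15 paralog sets with at least 2 members at or above 1 TPM, 10 had a lowest and a highest member whose counting intervals did not overlap. In 6 of them, Rab33, Rab9, Rab8, Rab1, Rab6 and Rab5, one interval lay wholly above 1 and another wholly below it, and these members kept the sign of their difference under every scaling tried. Counting intervals this narrow exclude 1 for many genes (22.3% of all genes above and 33.5% below), and no like count was made for other gene families, so nothing particular to Rab paralogs is read from these counts. The spread between the lowest and highest member was 2.24 on the log2 scale for Rab33, 1.001 for Rab3 and 0.92 for Rab9. It was 0.53 for Rab8, 0.51 for Rab1 and 0.47 for Rab6. The Rab4, Rab2, Rab22/31, Rab27 and Rab32/38 sets had overlapping intervals. Reads shared between similar genes could shift counts from one paralog to another, which was not tested.

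**Figure D3:**
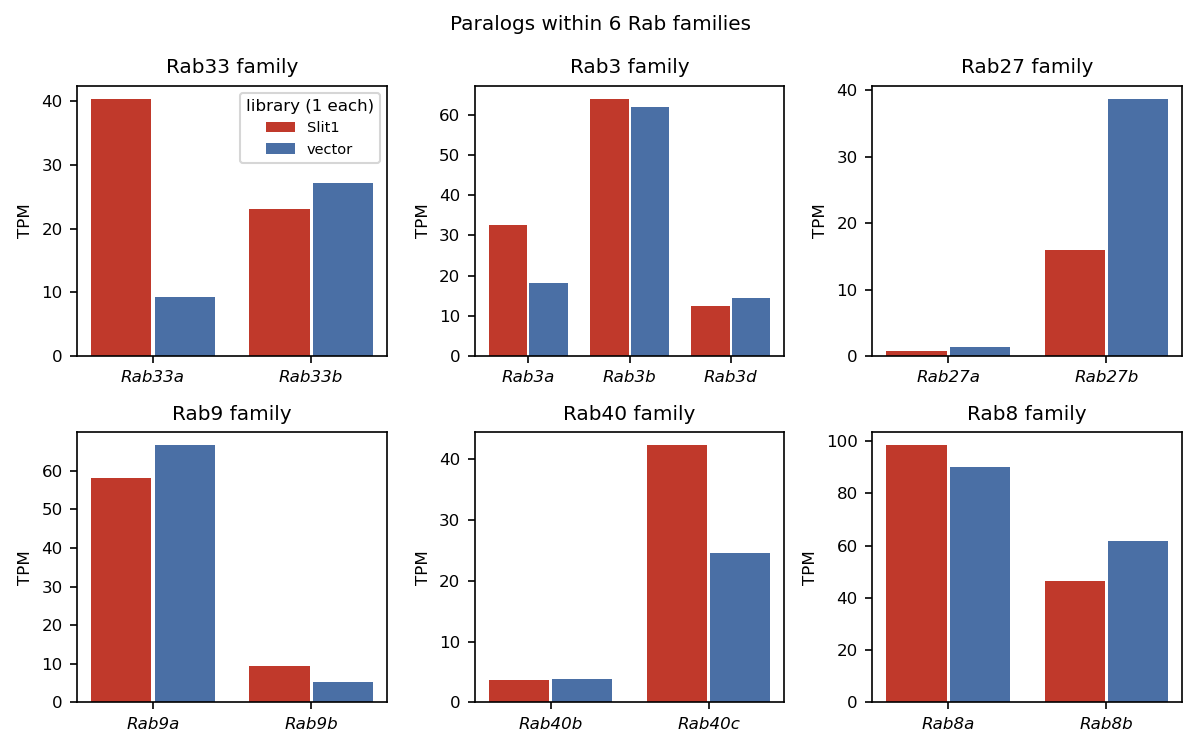
TPM of the paralogs at or above 1 TPM in 6 Rab families, Slit1 library (red) left of vector library (blue), 1 library each and no error bars. Rab33a was above Rab33b with Slit1 and below it with vector, and Rab27b was below its vector level in the Slit1 library.

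The genes that load, unload and use Rabs were looked at as 4 lists. Of 108 regulators and effectors at or above 1 TPM, 3 were called higher (2.78%, against 3.72% of all genes) and 4 lower (3.70%, against 4.83%), with a median difference of -0.08. None of the 8 genes of prenylation and of the GDP dissociation inhibitor cycle was called. Gdi2 was at 348 TPM with Slit1 and 434 TPM with vector (ratio 0.8004, interval 0.775 to 0.827). Rabac1, a prenylated Rab acceptor, was at 224 TPM with Slit1 and 186 TPM with vector (ratio 1.20), Rabif, a chaperone of nucleotide-free Rabs, at 35.3 and 30.5 TPM (ratio 1.16), and Chml, a Rab escort protein gene, at 1.65 and 2.04 TPM. None of 28 exchange factors was called: the nearest were the Rab5 exchange factor genes Rin1 (18.2 TPM with Slit1 and 26.99 TPM with vector, ratio 0.673, interval 0.610 to 0.741) and Rin3 (3.03 and 1.85 TPM, ratio 1.64, interval 1.18 to 2.298), followed by Ric1 (ratio 0.737) and Dennd4c (ratio 0.752). Rin3 was called higher in CPM and with edgeR TMM or DESeq2 size factors.

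Of 33 GTPase-activating proteins, Grtp1 was called higher (12.5 TPM with Slit1 and 7.77 TPM with vector, ratio 1.61, interval 1.23 to 2.12). Tbc1d15, which acts on Rab7, was called lower by a narrow margin (41.7 and 63.3 TPM, 1.52-fold lower, interval 1.41 to 1.64), and under no other scaling. That is 3.03% each way, against 3.72% of all genes higher and 4.83% lower. In CPM and with edgeR TMM or DESeq2 size factors, 3 of 34 were higher, Grtp1, Evi5l and Tbc1d30, and 0 lower. The shares of all genes called higher were then 3.92%, 4.04% and 4.12%. With the median gene at 0, 2 of 33 were higher, Grtp1 and Tbc1d25, against 4.43% of all genes. Of 39 effectors, 2 were higher (5.13%, against 3.72% of all genes) and 3 lower (7.69%, against 4.83%). With so few called, nothing particular to a list is read from these shares. The higher ones were Sytl2 and Sytl3, which encode synaptotagmin-like proteins. Sytl2 measured 7.62 TPM (346 counts) with Slit1 and 2.54 TPM (119 counts) with vector, a 3-fold higher level (interval 2.43 to 3.73). Sytl3 measured 2.22 TPM (48 counts) with Slit1 and 0.84 TPM (17 counts) with vector, a ratio of 2.64 (interval 1.49 to 4.90). Sytl3 fell below the floor in FPKM and with a floor of 5 TPM. The other synaptotagmin-like genes, all below 1 TPM on average, were not higher with Slit1: Sytl1 was at 0.39 TPM with Slit1 and 0.76 TPM with vector, Sytl4 at 0.57 and 0.77 TPM, and Sytl5 at 0.20 and 0.21 TPM. The lower effectors were Bicd1, a dynein adaptor that binds Rab6 (3.29 TPM with Slit1 and 6.72 TPM with vector, 2.04-fold lower, interval 1.76 to 2.37), the Rab11 effector Rab11fip2 (4.93 and 9.08 TPM, 1.84-fold lower, interval 1.38 to 2.47) and Micall1 of the recycling endosome (10.4 and 16.8 TPM, 1.61-fold lower, interval 1.38 to 1.88). Micall1 was not called lower in CPM or FPKM, nor with edgeR TMM or DESeq2 size factors.

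**Figure D4:**
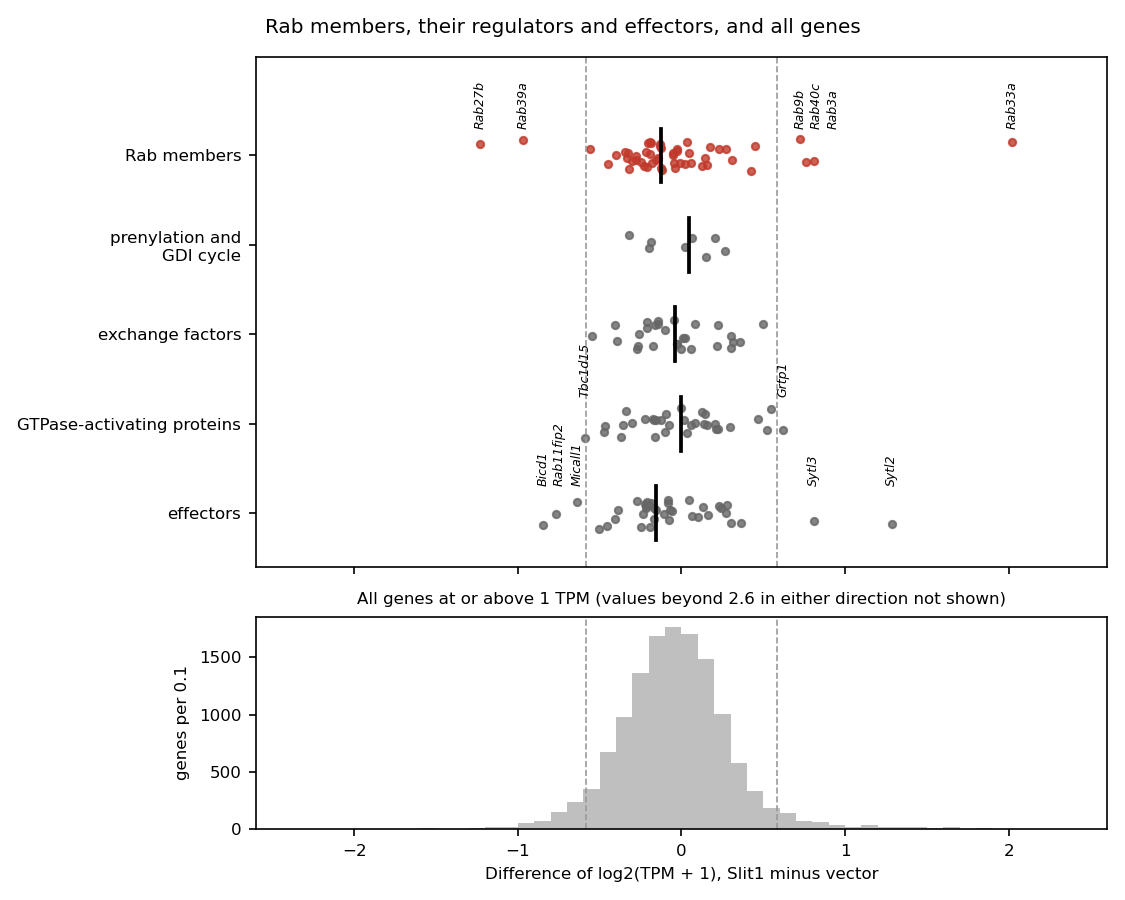
Difference of log2(TPM + 1), Slit1 minus vector, for the 52 Rab members and the 4 lists of regulators and effectors (points; black bars are medians, dashed lines 1.5-fold, called genes named), above a histogram of all 13175 genes. The Rab members centre at -0.12, near the median of all genes at -0.05, and Rab33a is the 1 listed gene above 2.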

How the data were processed

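RNA from rat OPCs was sequenced in 2 libraries, 1 transfected with Slit1 and 1 with vector. The authors deposited 1 table of 17455 genes with FPKM, TPM and read counts, per the file headers. TPM as the authors deposited them sum to 1000000 per library, and the deposited FPKM values summed to 473673 with Slit1 and 459452 with vector. The deposited counts are estimated counts: 31.4% with Slit1 and 26.1% with vector lay within 0.01 of a whole number. Per the submitters' processing notes the build was mRatBN7.2; aligner, counter, annotation and use of strand were not given in the sources used here. There were 0 value columns of other samples.

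Counts were rounded for the exact (Clopper-Pearson) 95% intervals of ratios of 2 Poisson counts, which were carried to the TPM ratio and cover counting error only. A count of 0 allows up to 3 counts, worth 0.130 TPM with Slit1 and 0.135 TPM with vector at a gene of median length. Differences used a pseudocount of 1, which understates changes of low genes, a floor of 1 TPM on the mean and a limit of 1.5-fold. RefSeq (GRCr8) held 98.6% of the gene numbers and all 57 members, and was used for gene types, overlaps and promoter windows. Compartments follow the textbook role of each Rab; the members, lists and limits were chosen with earlier results of these data known. The naming rule took every member, the called members of each regulator list and otherwise the up to 4 with the largest difference. Among the cell type markers, Gfap, Aqp4, Slc1a2, Gja1, Nefl, Syn1, Stmn2, Ptprz1 and Olig1 were named after their values were seen. So were Evi5l, Tbc1d30 and Tbc1d25 among the GTPase-activating proteins. The calculation was tested on simulated Poisson counts. These hold no spread between cultures and no reads shared between genes, so the test says nothing of either. Alternatives were CPM, FPKM, the median gene at 0, edgeR 4.0.16 TMM factors, DESeq2 1.42.0 size factors, pseudocounts of 0.1 and 5, floors of 0 and 5 TPM, a 2-fold limit and intervals wholly beyond 1.5-fold (Python 3.11.15, scipy 1.17.1).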

Additional observations from a re-analysis of the deposited data

How the results depend on the processing

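The 4 higher and 2 lower Rab members were called alike in CPM, FPKM, with the median gene at 0 and with edgeR TMM or DESeq2 size factors, and with floors of 0 or 5 TPM. A 2-fold limit left 1 higher (Rab33a) and 1 lower (Rab27b). With counting intervals wholly beyond 1.5-fold, 3 were higher and 1 lower, without Rab9b and Rab39a. A pseudocount of 5 lost Rab9b (all genes: 1.96% higher, 2.1% lower), and one of 0.1 added Rab27a as lower (4.76% and 6.58%). Over all genes the floor of 0 gave 3.36% higher and 4.16% lower, and that of 5 TPM gave 3.1% and 4.23%. The median difference of the members lay between -0.13 and -0.07 in these settings. The signs of Rab10, Rab11a, Rab2a, Rab35, Rab40b and Rab7a changed with the scaling, all with differences under 0.05. No called member changed sign.

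The regulator and effector counts depended more on the settings. In CPM and with edgeR TMM or DESeq2 size factors, 6 of 115 at or above the floor were higher and 2 lower. The shares over all genes were then 3.92% and 3.57%, 4.04% and 3.5%, and 4.12% and 3.48%. In FPKM 2 of 101 were higher and 2 lower (all genes: 3.31% and 2.79%). A pseudocount of 0.1 gave 5 higher and 5 lower of 108 (all genes: 4.76% and 6.58%). One of 5 gave 1 higher and 0 lower (1.96% and 2.1%). A 2-fold limit gave 1 higher and 0 lower (1.24% and 0.645%). Intervals wholly beyond 1.5-fold gave 1 higher and 1 lower (1.97% and 1.91%). With counts this small, nothing particular to these lists is read from them. The cause was not tested. Tbc1d15 was not lower in any other scaling, nor was Micall1 in CPM, FPKM or with edgeR TMM or DESeq2 size factors; Sytl3 fell below the floor in FPKM and at 5 TPM. Members under about 100 counts, such as Rab39a, are limited by depth. No paired analysis was possible because each group has 1 library and the groups share a single replicate number; for the same reason no replicate could be left out.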

Other observations

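The 6 Rab-like genes at or above 1 TPM outside the family rule, chosen after their values were seen, lay within 1.5-fold. Rabl6 measured 124 TPM with Slit1 and 113 TPM with vector (ratio 1.095, interval 1.04 to 1.15). Rabl2, which is linked to cilia, measured 24.0 TPM with Slit1 and 22.7 TPM with vector, and its interval held 1. Of the members of the intraflagellar transport machinery, Ift22 was lower, at 20.4 TPM with Slit1 and 29.4 TPM with vector (ratio 0.695, interval 0.611 to 0.790). Ift27 measured 56.5 and 49.8 TPM, with an interval that held 1 (ratio 1.13, interval 0.994 to 1.296). Rabl3 measured 15.99 TPM with Slit1 and 23.6 TPM with vector (ratio 0.677, interval 0.578 to 0.792). Rab5al1, a Rab5a-like gene whose sharing of reads with Rab5a was not tested, measured 12.2 TPM with Slit1 and 15.1 TPM with vector (ratio 0.809, interval 0.675 to 0.969).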
